A study of Mus musculus with 8 samples.

Results

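A set of 10 genes that mark the outer covering of the liver and the walls of its vessels was followed in liver RNA from mice that lack NgBR in the liver. All 10 had a row in the deposited table of 19642 genes. They comprise 5 mesothelial genes, Wt1, Msln, Upk3b, Gpm6a and Muc16, and 5 smooth muscle genes, Des, Tagln, Myh11, Mylk and Acta2. Wt1 was chosen because its level is higher in the knockout livers, so its own difference is given as a description with no test, while the remaining 9 were chosen for their cell type.

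RNA-seq was performed on livers of 4 WT and 4 N-LKO mice fed a chow diet (CD), with 1 library per mouse. N-LKO mice carry a deletion of Nus1, the gene for the NgBR subunit of cis-prenyltransferase, made with a floxed allele and Cre driven by the albumin promoter, which acts in hepatocytes. All mice were male on a C57BL6 background. Whether the WT mice carried floxed alleles or Cre is not given in the sources used here, and neither is the age at collection. Feeding lasted 8 weeks by the titles and the supplementary legends for these livers, while the treatment entries give 16 weeks.

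The mesothelium is a single sheet of cells that covers the liver capsule. Its cells are held to arise from the septum transversum of the embryo, and Wt1, a zinc finger transcription factor, marks them there and in related coelomic linings. Hepatic stellate cells share part of that ancestry. Vascular smooth muscle lies in the walls of the hepatic artery, the portal vein and the central veins, and is recognized by contractile proteins such as smooth muscle actin and myosin. In whole liver both cell types are rare beside hepatocytes.

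The total estimated count per library lay between 14688404 and 18585412. Nus1 averaged 88.2 ± 4.14 CPM in WT against 36.7 ± 2.57 CPM in N-LKO livers (SD, n = 4 per genotype), where CPM is the count scaled to a common library size with TMM, with no overlap (exact two-sided permutation test, p = 0.0286, the smallest this design can give). Hepatocyte markers dominated every library, and Alb alone stood at 58800 ± 10500 CPM in WT against 56200 ± 5210 CPM in N-LKO livers (SD, n = 4 per genotype). The members other than Mylk had between 4 and 84 counts in a liver, which limits the precision of each. In bulk RNA, fewer cells of a type and less RNA per cell cannot be told apart.

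Wt1 maps to chromosome 2 (105126529 to 105173616, plus strand, GRCm38) and is protein coding. No annotated exon of another gene overlaps its exons. Its deposited value is 1 count per gene and therefore adds up its splice forms. These include a known pair that differ by the 9 bases, at 105170010 to 105170018 of chromosome 2, which insert the amino acids KTS between the last zinc fingers. In the GENCODE M21 transcripts, 5 of the 7 that contain this exon have the longer end and 2 the shorter. The coding bases around the junction are printed to show how little separates the forms that the count merges, with the additional bases in capitals.
Longer end: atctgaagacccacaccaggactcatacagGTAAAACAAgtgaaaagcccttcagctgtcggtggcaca
Shorter end: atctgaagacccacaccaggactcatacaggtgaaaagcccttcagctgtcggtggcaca

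Wt1 was at 0.962, 0.50, 0.634 and 0.717 CPM in WT replicates 1 to 4. In N-LKO replicates 1 to 4 it was at 1.98, 3.23, 2.06 and 2.38 CPM. All N-LKO livers lay above all WT livers, as was so for 4.2% of all genes tested, a share from which nothing is read since Wt1 was chosen on this contrast, and N-LKO replicate 2 was the highest. The mean was 0.703 ± 0.194 CPM in WT against 2.41 ± 0.573 CPM in N-LKO livers (SD, n = 4 per genotype), a ratio of 3.43. The fitted log2 fold change was 1.75 (standard error 0.273, 95% interval 1.15 to 2.35), and it was 1.58 to 1.94 with each liver left out in turn. Because Wt1 was chosen for this rise, the fold change may be too large. Neither its interval nor its range without 1 liver is a test of it. These values rest on 49 counts in the 4 WT libraries together (exact Poisson 95% interval 36.3 to 64.8) and 150 counts in the 4 N-LKO libraries (127 to 176), intervals that cover counting error only.

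Of the 9 members other than Wt1, 8 passed the filter on low counts, and Acta2 did not. The edgeR quasi-likelihood fit called 0 of those 8 at a Benjamini-Hochberg adjusted p under 0.05, a threshold passed by 1.04% of the 14214 genes tested. The count was also 0 with DESeq2, where 2.61% of genes were called, and 0 with limma-voom, where 0.886% were. At an unadjusted p under 0.05 edgeR gave 3 of the 8, Gpm6a, Des and Mylk, against 12.8% of all genes tested. Their log2 fold changes ran from -0.60 to 0.63 with a median of 0.17, and 4 were above 0 and 4 below, while the median over all genes was -0.0033.

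**Figure D1:**
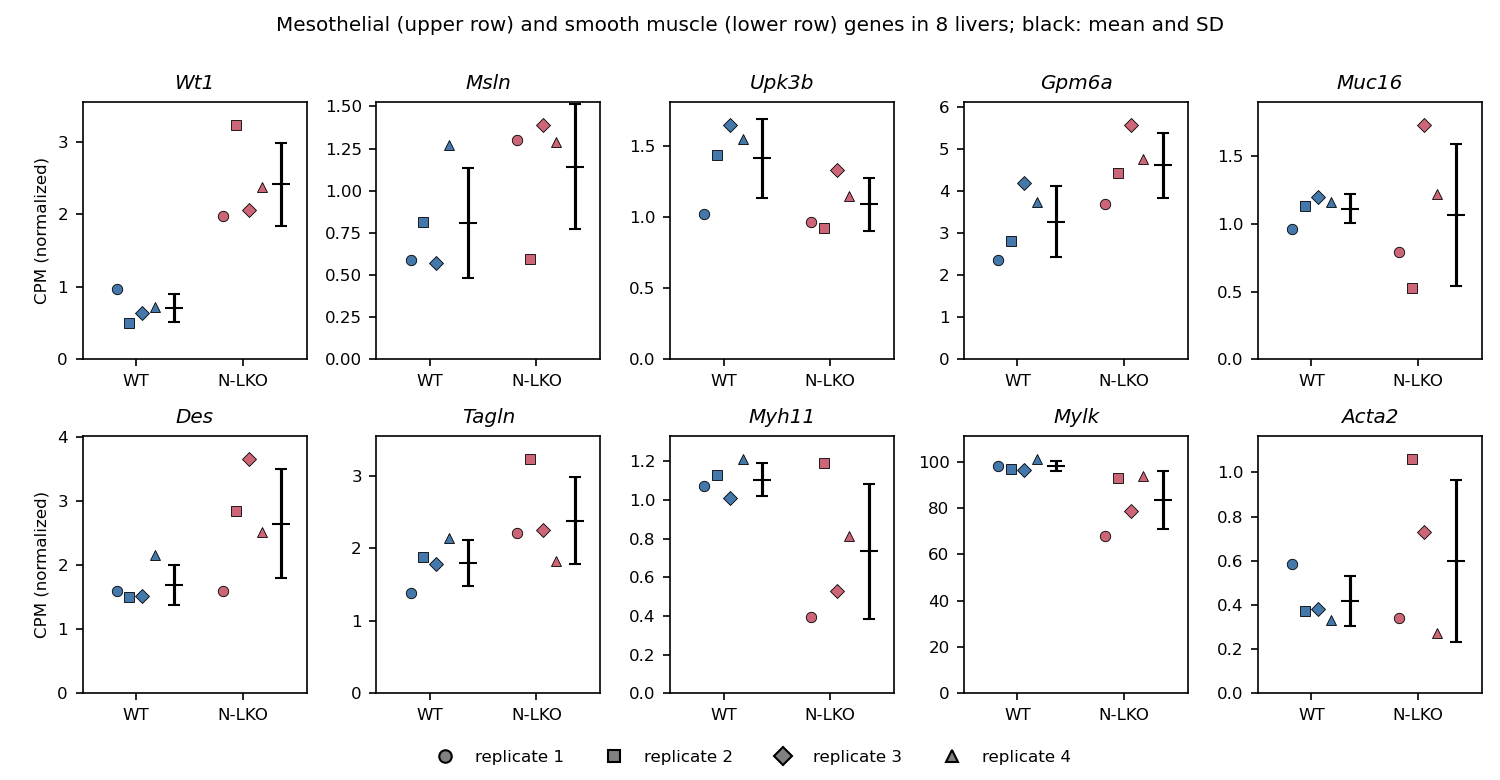
Normalized CPM (vertical axis of each panel, starting at 0) of the 5 mesothelial genes (upper row) and the 5 smooth muscle genes (lower row) in WT (blue) and N-LKO (red) livers, 1 symbol per liver, with the mean and SD of 4 livers in black. Wt1 is between 1.98 and 3.23 CPM in N-LKO livers and at most 0.962 CPM in WT livers, Mylk is at most 93.9 CPM in N-LKO livers and at least 96.2 CPM in WT livers, and the genotypes overlap for the other 8 genes.

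None of the 4 remaining mesothelial genes was called, and 2 had a log2 fold change above 0 and 2 below. Msln encodes mesothelin, a surface glycoprotein of mesothelial cells, and maps to chromosome 17 (25748613 to 25754378, minus strand). It was at 0.588, 0.813, 0.571 and 1.27 CPM in WT replicates 1 to 4 and at 1.30, 0.594, 1.39 and 1.29 CPM in N-LKO replicates 1 to 4. WT replicate 4 was among the higher livers and N-LKO replicate 2 among the lower, so the genotypes overlapped. The log2 fold change was 0.49 ± 0.356 (SE, edgeR, adjusted p = 0.618), with a 95% interval of -0.29 to 1.28.

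Upk3b encodes a uroplakin, a membrane protein of urothelium and mesothelium, and maps to chromosome 5 (136038496 to 136046487, plus strand). It was at 1.02, 1.44, 1.65 and 1.55 CPM in WT livers and at 0.964, 0.924, 1.33 and 1.15 CPM in N-LKO livers. N-LKO replicates 1 and 2 were below every WT liver and the other two were within the WT range. Its log2 fold change was -0.37 ± 0.248 (SE, edgeR, adjusted p = 0.590), opposite in sign to that of Wt1, with a 95% interval of -0.91 to 0.18.

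Gpm6a encodes a membrane glycoprotein of neurons that also marks mesothelial cells, and maps to chromosome 8 (54954843 to 55060871, plus strand). It was at 2.35, 2.81, 4.18 and 3.75 CPM in WT livers and at 3.69, 4.42, 5.57 and 4.75 CPM in N-LKO livers. WT replicate 3 was above N-LKO replicate 1, and WT replicate 4 was too. N-LKO differed from WT by a log2 fold change of 0.49 ± 0.207 (SE, edgeR, adjusted p = 0.354), with a 95% interval of 0.035 to 0.95.

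Muc16 encodes the large mucin that carries the CA125 antigen and maps to chromosome 9 (18495455 to 18674530, minus strand). It was at 0.962, 1.13, 1.2 and 1.16 CPM in WT livers and at 0.794, 0.528, 1.73 and 1.22 CPM in N-LKO livers. The N-LKO livers spread on both sides of the narrow WT range. The fitted change was a log2 fold change of -0.065 ± 0.339 (SE, edgeR, adjusted p = 0.964), with a 95% interval of -0.81 to 0.68, and it was 0.16 without N-LKO replicate 2 and 0.059 without N-LKO replicate 1.

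The difference between the fold change of Wt1 and those of the other 4 genes was not tested, since Wt1 was chosen on the same comparison. The summed level of the 4 genes was 4.92 to 7.73 CPM in WT livers and 6.47 to 10 CPM in N-LKO livers, which overlap. Wt1 amounted to 19.6%, 8.08%, 8.33% and 9.29% of that sum in WT replicates 1 to 4 and to 29.4%, 50%, 20.5% and 28.2% in N-LKO replicates 1 to 4. On the log2 CPM scale, Wt1 minus the mean of the other 4 genes was -0.92 ± 0.51 (SD, n = 4) in WT livers and 0.59 ± 0.62 (SD, n = 4) in N-LKO livers. WT replicate 1, at -0.16, was close to N-LKO replicate 3, at -0.0089.

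**Figure D2:**
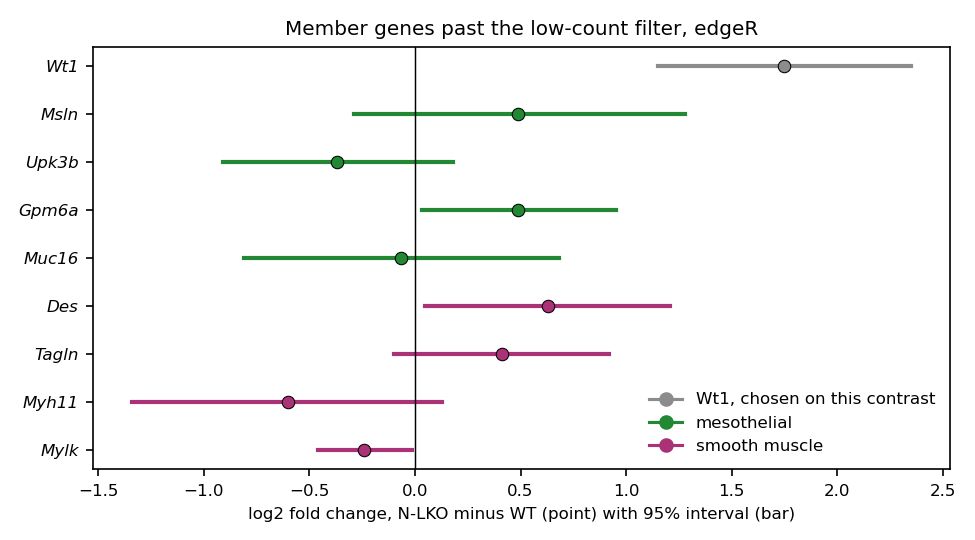
Log2 fold change of N-LKO against WT (horizontal axis) for the 9 members past the low-count filter, with points for the edgeR estimate and bars for its 95% interval. Wt1 (gray, chosen on this comparison) is at 1.75, the other mesothelial genes are between -0.37 and 0.49, and the smooth muscle genes lie on both sides of 0.

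Within each genotype the liver with the most Wt1 tended to have little of the other mesothelial genes. WT replicate 1 was the highest WT liver for Wt1 and the lowest for Upk3b, Gpm6a and Muc16. N-LKO replicate 2 was the highest N-LKO liver for Wt1 and the lowest for Msln, Upk3b and Muc16. After the genotype mean was subtracted, the Pearson correlation of Wt1 over the 8 livers was -0.57 with Msln, -0.63 with Upk3b, -0.23 with Gpm6a and -0.55 with Muc16. Among the other 4 genes the 6 pairs ran from 0.22 to 0.89 with a median of 0.58, and Upk3b and Gpm6a were the closest pair. These correlations are a description of 8 livers, whose points share a library and its depth and rest on 8 to 84 counts a gene and liver, and the median over 13166 genes of the same correlation with Wt1 was 0.035. Values as low were common, since 11.8% of those genes were at or below the value of Msln and 9.28% at or below that of Upk3b.

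**Figure D3:**
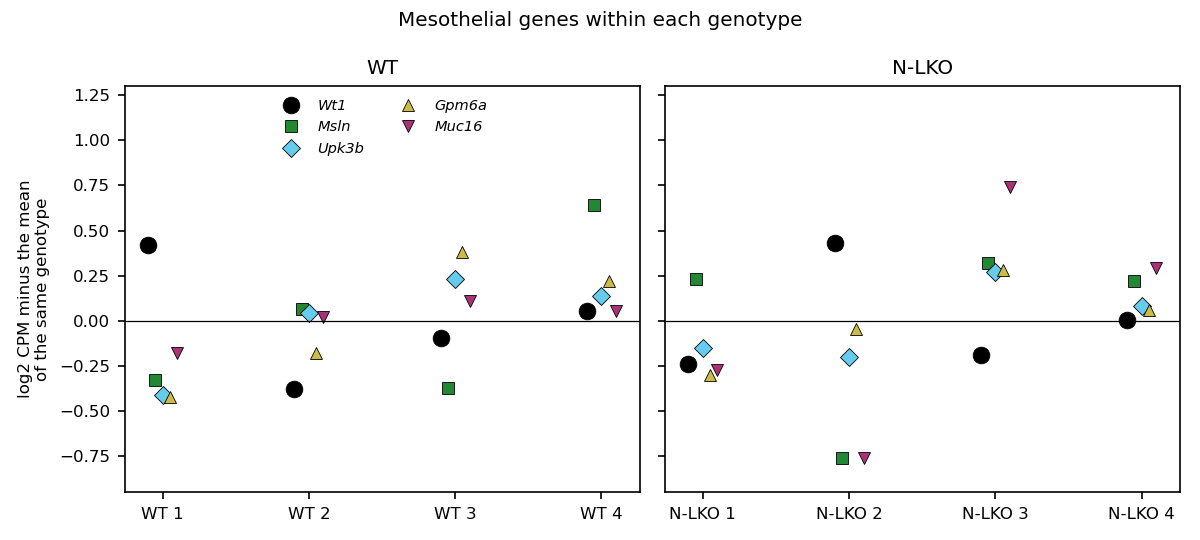
Log2 CPM of the 5 mesothelial genes in each liver after subtraction of the mean of the same genotype (vertical axis), for 4 WT (left) and 4 N-LKO livers (right). Wt1 (black circles) is highest in WT 1 and N-LKO 2, the livers in which the other 4 mesothelial genes are all below their genotype mean.

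Among the genes tested with a mean of at least 1 CPM, the 5 with the pattern most like Wt1 by that measure were Ctsc (0.97), Mapre1 (0.96), Slc39a1 (0.96), Asap1 (0.96) and Trio (0.96), each over 8 livers and 13166 genes compared. The highest of so many correlations over 8 livers can be this large by chance, so nothing is read from them. None of the 5 is a mesothelial marker of the lists used here. They encode a lysosomal protease, a microtubule end binding protein, a zinc transporter and regulators of small GTPases. None was called between the genotypes, with log2 fold changes of -0.36 for Ctsc to 0.26 for Trio and adjusted p-values of 0.277 to 0.877 (edgeR).

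Of 15 further mesothelial genes 13 had a row, 5 passed the filter and 0 were called by edgeR, DESeq2 or limma-voom, with 0 at an unadjusted p under 0.05. Their median log2 fold change was 0.22, with 4 above 0 and 1 below. The 5 tested were Krt19, Pdpn, Sulf1, Slpi and Efemp1. Lrrn4, Rspo1, Bnc1 and Upk1b were among those with too few counts, so the median does not cover them. In 2 of the 13, Krt19 and Bnc1, the genotypes did not overlap, and only Krt19 of these was tested. Among all genes tested 7.52% had no overlap, a share that does not cover genes below the filter. Krt19 was higher in N-LKO livers, and which cells its RNA came from was not tested. Bnc1, which failed the filter, was lower, with 6 to 9 counts in WT livers and 3 to 6 in N-LKO livers. Efemp1, a matrix fibulin, was the most abundant, at 8.75 ± 1.70 CPM in WT against 10.2 ± 1.52 CPM in N-LKO livers (SD, n = 4 per genotype), with a log2 fold change of 0.23 (adjusted p = 0.609, edgeR). Sulf1, a heparan sulfatase, was at 1.94 ± 0.311 CPM against 2.04 ± 0.503 CPM (SD, n = 4 per genotype). Calb2 and Wt1os, the antisense neighbor of Wt1, had no row in the table used here.

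Among the partners of WT1 and the transcription factors of the coelomic lining, 12 of 15 had a row, 11 passed the filter and 0 were called with edgeR. At an unadjusted p under 0.05 edgeR gave 3 of the 11, against 12.8% of all genes tested. Limma-voom called 0 and DESeq2 called 2, Tbx20 and Tcf21. Nr2f2 and Wtap were the most abundant. Nr2f2, an orphan nuclear receptor, was at 62.0 ± 18.4 CPM in WT against 56.4 ± 2.55 CPM in N-LKO livers (SD, n = 4 per genotype), and Wtap, named for its binding to WT1, was at 38.2 ± 1.77 CPM against 39.0 ± 2.00 CPM (SD, n = 4 per genotype). Tcf21 and Tbx20, named after their values were seen, had log2 fold changes of 0.75 (adjusted p = 0.0871, edgeR) and 0.90 (adjusted p = 0.137, edgeR). The median of the list was 0.10.

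The smooth muscle genes went in different directions, and none of the 4 tested was called. Mylk encodes myosin light chain kinase and maps to chromosome 16 (34745210 to 35002420, plus strand). It was at 98.2, 96.6, 96.2 and 101 CPM in WT livers and at 67.7, 92.7, 78.8 and 93.9 CPM in N-LKO livers. Every N-LKO liver was below every WT liver, as were 3.32% of all genes tested, while 7.52% had no overlap in either direction. The log2 fold change came to -0.24 ± 0.101 (SE, edgeR, adjusted p = 0.364), with a 95% interval of -0.46 to -0.012. Antisense genes share 4.9% and 2.0% of its exon length and had at most 8 counts in a liver, against 1187 or more for Mylk.

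Myh11 encodes smooth muscle myosin heavy chain, the most specific of these markers, and maps to chromosome 16 (14194535 to 14291372, minus strand). It was at 1.07, 1.13, 1.01 and 1.21 CPM in WT livers and at 0.397, 1.19, 0.531 and 0.815 CPM in N-LKO livers. N-LKO replicate 2 was within the WT range and the other N-LKO livers were below it. The log2 fold change was -0.60 ± 0.332 (SE, edgeR, adjusted p = 0.494), with a 95% interval of -1.34 to 0.13.

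Des encodes desmin, the intermediate filament of muscle, which stellate cells of the mouse also contain, and maps to chromosome 1 (75360329 to 75368579, plus strand). It was at 1.6, 1.5, 1.52 and 2.15 CPM in WT livers and at 1.59, 2.84, 3.65 and 2.51 CPM in N-LKO livers. N-LKO replicates 2, 3 and 4 were above every WT liver and N-LKO replicate 1 was not. Its log2 fold change was 0.63 ± 0.264 (SE, edgeR, adjusted p = 0.352), with a 95% interval of 0.047 to 1.21.

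Tagln encodes the actin binding protein transgelin (SM22) and maps to chromosome 9 (45929619 to 45936058, minus strand). It was at 1.39, 1.88, 1.78 and 2.15 CPM in WT livers and at 2.21, 3.23, 2.26 and 1.83 CPM in N-LKO livers, with N-LKO replicate 4 inside the WT range. N-LKO differed from WT by a log2 fold change of 0.41 ± 0.231 (SE, edgeR, adjusted p = 0.510), with a 95% interval of -0.10 to 0.92. Exons of Gm48529 on the other strand cover 62.4% of its exon length and those of Pcsk7 5.4%, both have counts of their own, and no source says whether strand was used in counting, which leaves the level of Tagln uncertain. Gm48529 had a log2 fold change of 0.30 (adjusted p = 0.594, edgeR).

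Acta2 encodes smooth muscle actin, the usual mark of vascular smooth muscle and of activated stellate cells, and maps to chromosome 19 (34241090 to 34255590, minus strand). It had 11, 6, 6 and 6 counts in WT replicates 1 to 4 and 6, 16, 11 and 4 counts in N-LKO replicates 1 to 4, too few for the filter. N-LKO replicates 1 and 4 were within or below the WT range in CPM, and the other two were above it. The means were 0.419 ± 0.115 CPM against 0.599 ± 0.365 CPM (SD, n = 4 per genotype). Without the filter the log2 fold change was 0.48 (adjusted p = 0.772, edgeR), with a 95% interval of -0.56 to 1.52. No difference was detected, and the interval holds changes in both directions. Actin genes are nearly identical over their coding exons, so reads could also have been divided among them.

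Contractile genes are classically controlled through the CArG box, bound by serum response factor. RefSeq windows of 250 bases before and 50 after the start (GRCm38.p6) were at hand for 6 members, Des, Upk3b, Gpm6a, Muc16, Mylk and Acta2. The Mylk window, at 34784700 to 34784999 of chromosome 16, lies inside the gene as mapped above. It therefore does not cover the start of Mylk given there. A Gpm6a window, at 54779184 to 54779483 of chromosome 8, lies before that gene as mapped above. A CArG box, which reads alike on both strands, was found in none of these, 0 members, and in 1.63% of all 32851 windows. With 1 base other than A or T allowed in its core, it was found in Acta2 alone of the 6, at 2 places, and in 9.98% of all windows. The matches began 84 and 34 bases before the RefSeq start, at chr19:34255438-34255467 and chr19:34255388-34255417 on the minus strand with their flanks. GENCODE M21 starts Acta2 further upstream, at 34255590, so both matches lie inside the gene as mapped there. They are shown because Acta2 is the member with the fewest counts, with the match in capitals.
Acta2 upstream match: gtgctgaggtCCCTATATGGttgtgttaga
Acta2 downstream match: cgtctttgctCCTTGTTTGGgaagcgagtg

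Levels between genes were compared per kilobase of exon in WT livers. Mylk was highest at 8.70 CPM per kb, followed by Gpm6a at 1.02, Tagln at 0.905, Des at 0.451, Upk3b at 0.40, Msln at 0.264, Acta2 at 0.191, Myh11 at 0.146, Wt1 at 0.114 and Muc16 at 0.0422 CPM per kb. Mylk stood 19.3-fold above Des, 45.6-fold above Acta2 and 59.8-fold above Myh11 per kilobase. Its level goes against its label as a smooth muscle marker in whole liver, where the defining genes Myh11 and Acta2 had 4 to 22 counts in a liver. In N-LKO livers Wt1 reached 0.390 CPM per kb, close to Msln at 0.374 and Upk3b at 0.309.

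Of 20 further smooth muscle genes 17 had a row, 13 passed the filter and 0 were called by edgeR. At an unadjusted p under 0.05 edgeR gave 5 of the 13, against 12.8% of all genes tested. Limma-voom called 0 and DESeq2 called 1, Csrp1, a LIM protein at a log2 fold change of 0.70 (adjusted p = 0.142, edgeR), named after its value was seen. The median was 0.14, with 8 above 0 and 5 below. Cald1, for the actin regulator caldesmon, was at 438 ± 37.4 CPM in WT against 356 ± 55.7 CPM in N-LKO livers (SD, n = 4 per genotype) (log2 fold change -0.30, adjusted p = 0.308, edgeR). Tpm1, a tropomyosin, was at 24.1 ± 2.37 CPM against 26.8 ± 1.55 CPM (SD, n = 4 per genotype). Cald1 stood at 36.3 CPM per kb in WT livers, above Mylk at 8.70. As for Mylk, that level goes against a smooth muscle label in whole liver. Cnn1 and Actg2 had no row in the table used here.

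None of the regulators of these genes was called. Of 9 regulator symbols, counting both names of each myocardin-related factor, 6 had a row and were tested, with 0 called by edgeR, DESeq2 or limma-voom and 0 at an unadjusted p under 0.05. Srf, the factor that binds the CArG box, was at 4.38 ± 0.762 CPM in WT against 4.29 ± 1.04 CPM in N-LKO livers (SD, n = 4 per genotype), and its coactivator Mrtfb was at 29.1 ± 2.70 CPM against 33.9 ± 5.03 CPM (SD, n = 4 per genotype). Myocd had no row in the table used here. Of 8 pericyte genes 6 had a row, 5 were tested and 0 were called by edgeR or limma-voom. At an unadjusted p under 0.05 edgeR gave 2, against 12.8% of all genes tested. DESeq2 called 1, Pdgfrb, named after its value was seen. Pdgfrb was at 4.24 ± 1.04 CPM in WT against 8.71 ± 2.51 CPM in N-LKO livers (SD, n = 4 per genotype). Its log2 fold change was 1.04 (adjusted p = 0.0688, edgeR). Every N-LKO liver was above every WT liver, as was so for 4.2% of all genes tested. Rgs5 was at 38.7 ± 10.3 CPM in WT against 36.6 ± 5.64 CPM in N-LKO livers (SD, n = 4 per genotype). Abcc9, a potassium channel subunit, was at 27.6 ± 4.91 CPM against 39.2 ± 7.61 CPM (SD, n = 4 per genotype), with a log2 fold change of 0.51 (adjusted p = 0.191, edgeR).

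**Figure D4:**
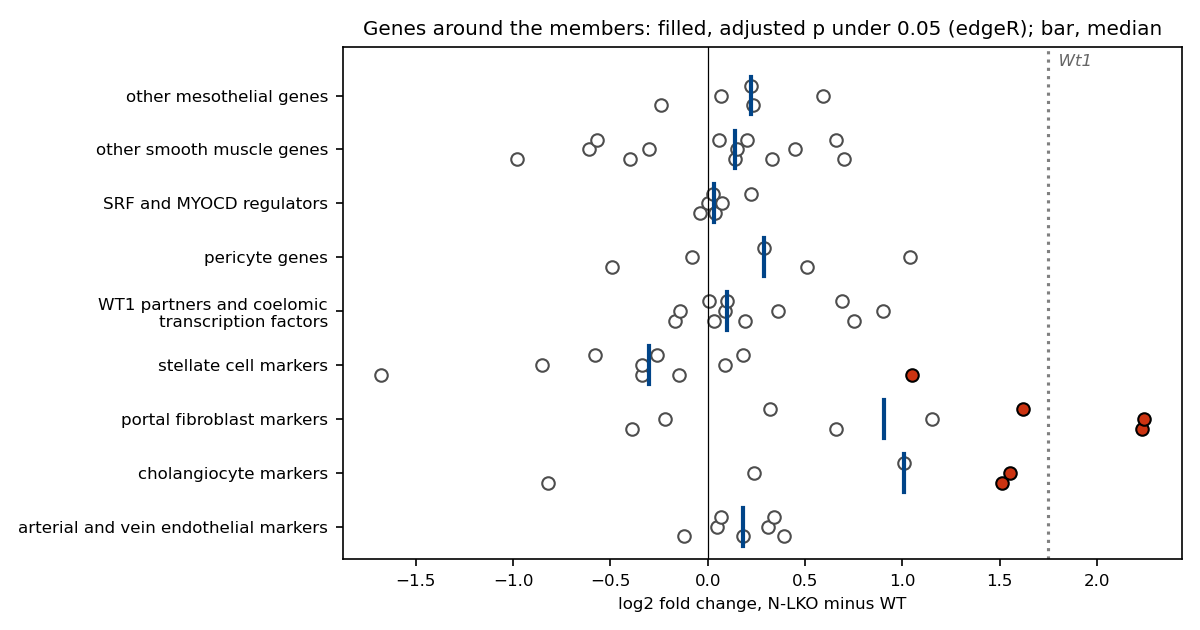
Log2 fold change of N-LKO against WT (horizontal axis) for the tested genes of 9 lists, 1 circle per gene, filled where the edgeR adjusted p was under 0.05, with a blue bar at the median of each list and a dotted line at Wt1. The mesothelial, smooth muscle, regulator, pericyte, WT1 partner and endothelial lists hold no filled circle, the portal fibroblast list holds 3, the cholangiocyte list 2 and the stellate cell list 1.

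Some mesenchymal and epithelial genes of other cell types were higher in the same livers as Wt1. Of 12 portal fibroblast markers 10 had a row, 8 were tested and 3 rose, Cd34 (log2 fold change 2.24, adjusted p = 0.00660), Dpt (2.23, adjusted p = 0.000320) and Eln (1.62, adjusted p = 0.0186, edgeR for each), beside 0.823% of all genes called higher. An unadjusted p under 0.05 was reached by 4 of the 8 (edgeR), against 12.8% of all genes tested. The summed level of the list was 12.8 to 17.7 CPM in WT and 26.0 to 37 CPM in N-LKO livers. Its most abundant genes were Dpt and Col15a1, and Col15a1 had a log2 fold change of -0.39 (adjusted p = 0.647, edgeR). The call of Eln was lost without WT replicate 2 (adjusted p = 0.0631), WT replicate 4 (0.0713) or N-LKO replicate 3 (0.0608, edgeR). The part of these cells in the Wt1 difference was not tested.

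All 10 stellate cell markers were tested, with 1 call by edgeR, beside 1.04% of all genes tested. An unadjusted p under 0.05 was reached by 5 of the 10 (edgeR), against 12.8% of all genes tested. The genotypes did not overlap for 4 of the 10, against 7.52% of all genes tested. DESeq2 also called Hhip, named after its value was seen, at a log2 fold change of -1.68 (adjusted p = 0.0764, edgeR). Hhip and Vipr1 were each lower in every N-LKO liver than in every WT liver, as were 3.32% of all genes tested. The median of the list was -0.30, 7 of the 10 were below 0, and Lrat, Reln and Vipr1 had log2 fold changes of -0.15 (adjusted p = 0.816), 0.087 (adjusted p = 0.892) and -0.34 (adjusted p = 0.200, edgeR for each). Its summed level was 102 to 147 CPM in WT and 107 to 145 CPM in N-LKO livers, which overlap. Of 9 cholangiocyte markers 8 had a row, 5 were tested and 2 rose, Epcam (1.55, adjusted p = 0.0293) and Spp1 (1.51, adjusted p = 0.0353, edgeR for both), beside 0.823% of all genes called higher. Of the 5 tested, 3 had an unadjusted p under 0.05 (edgeR), against 12.8% of all genes tested. Limma-voom called 0 of the cholangiocyte markers. The edgeR test called 0 without WT replicate 1, 2 or 4 or N-LKO replicate 2 or 3, and 1, Epcam, without N-LKO replicate 4. Without WT replicate 3 it called Sox9 and Spp1, and Epcam was lost (adjusted p = 0.0749). Their summed level was 38.5 to 65.6 CPM in WT and 73.1 to 158 CPM in N-LKO livers. The part of these cells in the values of the members was not tested either.

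Markers of tissues that could be carried along with a piece of liver were low. Of 9 striated muscle markers 2 had a row, Acta1 and Tnnt2, with at most 18 counts in a liver and a summed level of 0.427 to 0.625 CPM in WT and 0.475 to 1.19 CPM in N-LKO livers. None of the 5 pancreas markers, 0 genes, had a row in the table used here. Of 5 gut wall markers 2 had a row, Muc2 and Vil1, at most 5 counts in a liver. Of 5 adipose markers 2 had a row, of which Cfd reached at most 0.883 CPM and Cidec, also a gene of fatty hepatocytes, was at 46.8 ± 13.6 CPM in WT against 42.8 ± 18.6 CPM in N-LKO livers (SD, n = 4 per genotype). Of 8 markers of arterial and venous endothelium 7 were tested and 0 were called by edgeR, with 0 at an unadjusted p under 0.05 and a median log2 fold change of 0.18.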

How the data were processed

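Liver RNA of 4 WT and 4 N-LKO mice was depleted of ribosomal RNA and sequenced as single reads. The authors deposited 1 table of estimated counts (expected counts) per gene for 19642 genes, 52.2% of which have decimals in at least 1 liver, and the smallest row sum is 10. The study's methods name TopHat2 and cuffdiff, while the submitters' processing notes name STAR, Partek and mm9, and the coordinates of the members match GRCm38. The counting program and its use of strand are not given in the sources used here.

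Values were rounded to whole numbers. Genes were filtered with filterByExpr (minimum count 10, minimum total 15), scaled by TMM and tested with the quasi-likelihood test of edgeR 4.0.16 in R 4.3.3, N-LKO against WT, with Benjamini-Hochberg adjustment over 14214 genes and a threshold of 0.05. Standard errors were taken from the fold change and its F statistic, and intervals are at 95%. DESeq2 1.42.0, limma-voom (limma 3.58.1), other scalings and filters, replicate blocks and fits without each liver were alternatives. Log2 CPM used a prior count of 2. Totals per library were 14688404 to 18585412, and intervals of counts cover counting error only. No pair of livers agreed within sampling noise (chi-square per degree of freedom at least 11.8).

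The members and lists were chosen with earlier results of these data known. All members were named, with the called genes and the 2 most abundant genes of each list, the first marker of each cell type list, and the 5 genes most correlated with Wt1. A called gene of these lists is not reported here. On simulated data edgeR recovered 98% of 4-fold changes and 78% of 2-fold changes over 14022 genes tested, with 12 false calls. The changed genes were drawn from all genes above a mean of 1 CPM, whatever their level. These shares therefore do not give the recovery for the members, of which Msln, Myh11 and Acta2 had means below 1 CPM.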

Additional observations from a re-analysis of the deposited data

Results flagged for a closer look

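In 24 groups of 4 livers looked at for the members, 3 values stood apart from the other three livers of their genotype by a gap above Dixon's 95% critical value, where chance gives about 1.2. Msln was at a log2 CPM of -0.48 in N-LKO replicate 2, against 0.50 to 0.60 in the other N-LKO livers. Wt1 minus the mean of the other mesothelial members was -0.16 in WT replicate 1, against -1.29 to -1.11 in the other WT livers. Nus1 was at a log2 CPM of 6.36 in WT replicate 1, against 6.49 to 6.5 in the other WT livers.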

How the results depend on the processing

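The number of members other than Wt1 that were called stayed at 0 under every alternative run. Over all genes 148 were called, 98 when at least 10 counts were required in every liver, 371 with DESeq2 and 71 to 173 with 1 liver left out, the lowest without WT replicate 4. DESeq2 called 1 further smooth muscle gene, 1 pericyte gene, 2 WT1 partners or coelomic factors and 2 stellate cell markers. Stellate cell markers called were 1 to 2 with 1 liver left out. Cholangiocyte markers called were 1 with library totals alone, 0 with limma-voom, 0 with the library number as a replicate block and 0 to 2 with 1 liver left out. The cause of these changes was not tested. Wt1 minus the other mesothelial members differed by 1.51 between the genotypes (log2 CPM), by 1.63 with a prior count of 0.5, and by 1.22 (without N-LKO replicate 2) to 1.76 (without WT replicate 1). The log2 fold change changed sign within the range over fits without 1 liver for Muc16 (-0.39 to 0.16), Sulf1 (-0.045 to 0.23), Srf (-0.15 to 0.11), Rgs5 (-0.20 to 0.10), Nr2f2 (-0.26 to 0.080), Wtap (-0.0026 to 0.053, and -0.0026 with library totals alone), Reln (-0.055 to 0.22), Efnb2 (-0.097 to 0.24), Alb (-0.17 to 0.038), Apoa1 (-0.071 to 0.028), Cidec (-0.33 to 0.082) and Asap1 (-0.055 to 0.31). Same-numbered livers deviated together weakly at most (correlations of -0.0853 to 0.0625 for title numbers and -0.0092 to 0.166 for library numbers). The samples were therefore not paired in the main fit, though correlations over all genes cannot exclude a weak shared effect. With the title number as a replicate block 131 genes were called, and with the library number 113. The library number block also ended the calls of Eln (adjusted p = 0.0535), Epcam (0.0661) and Spp1 (0.0901, edgeR). Counts of 4 to 84 a liver limit every member other than Mylk.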
